A study of Mus musculus with 12 samples.

Results

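The axon guidance ligands and receptors are the semaphorins with their plexin and neuropilin receptors, the Slits with the Robo receptors, the netrins with Dcc and the Unc5 receptors, and the ephrins with the Eph receptors. They were taken by gene symbol, and 74 of the 55401 genes in the counts matched. These were 20 semaphorins, 9 plexins, 2 neuropilins, 3 Slits, 4 Robo receptors, 4 netrins, 5 netrin receptors, 8 ephrins and 14 Eph receptors. The other matches were 3 antisense RNAs of the Plxna4 locus and 2 genes matched by name that were kept apart from the families. These 2 were Unc50, which encodes a Golgi membrane protein, and Unc5cl, which encodes a death-domain protein.

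RNA was sequenced from sorted brain cells of mice that carried CD51-Flp, a Flp recombinase driven by CD51, together with the Flp-dependent reporter Rosa-CAG-FSF-tdTomato. CD51 is the integrin alpha-v subunit, encoded by Itgav. All cells were GFP-positive. Hippocampus CD51+ and cortex CD51+ astrocytes were sorted as tdTomato-positive, and hippocampus CD51- and cortex CD51- astrocytes as tdTomato-negative, with 3 libraries in each of the 4 groups. The driver of GFP, the age of the mice and whether replicates came from separate mice are not given in the sources used here, so p-values measure the spread between these libraries. A Flp reporter also marks a cell that expressed the driver only in the past. The titles give the classes used here. The names of the libraries could be read as the opposite classes, and each sign of a CD51 difference would then turn round.

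Guidance cues are secreted or membrane-bound proteins that attract or repel growing axons. Class 3 semaphorins are secreted and mostly act through a neuropilin joined to an A-type plexin. The other vertebrate semaphorins are membrane-bound and mostly bind plexins directly. Slits repel through Robo receptors, netrins attract through Dcc and repel through Unc5 receptors, and ephrins and Eph receptors signal in both directions at contacts between cells. In the adult brain, astrocytes carry several of these proteins at synapses, at vessels and at contacts with other glia.

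Total counts were 4351897 to 12847183 read pairs per library, and mitochondrial genes took 49.9% to 53.3% of them in hippocampus CD51+, 20.2% to 29.4% in hippocampus CD51-, 36.5% to 71.1% in cortex CD51+ and 22.5% to 38.6% in cortex CD51- libraries. Itgav, the gene behind the label, had 371, 321 and 409 CPM (counts scaled by library size) in hippocampus CD51+ libraries, against 221, 561 and 353 CPM in hippocampus CD51- libraries (edgeR adjusted p = 0.984). The cortical levels were 335, 533 and 873 CPM in CD51+ libraries, against 356, 246 and 324 CPM in CD51- libraries (edgeR adjusted p = 0.269). The groups overlapped in both regions, so the Itgav level did not separate the labelled classes.

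The labelled cell type was checked with summed marker levels. The 15 astrocyte markers summed to 57200 ± 7250 CPM in hippocampus CD51+, 15600 ± 1500 CPM in hippocampus CD51-, 69900 ± 10800 CPM in cortex CD51+ and 8740 ± 5410 CPM in cortex CD51- libraries (SD, n = 3 each). None of them was at 0 in any group. The 11 oligodendrocyte markers summed to 3070 ± 1850 CPM in hippocampus CD51+, 23300 ± 15500 CPM in hippocampus CD51-, 2790 ± 79.7 CPM in cortex CD51+ and 43400 ± 17500 CPM in cortex CD51- libraries, and only Mag in cortex CD51+ libraries was at 0. The 14 microglial markers summed to 745 ± 900 CPM in hippocampus CD51+, 7580 ± 1610 CPM in hippocampus CD51-, 633 ± 374 CPM in cortex CD51+ and 11500 ± 1760 CPM in cortex CD51- libraries, with Aif1 alone at 0 in cortex CD51+ libraries. Oligodendrocyte and microglial markers were therefore higher in every CD51- library than in any CD51+ library of the same region. The sum over the 7 markers of oligodendrocyte precursors went the other way, though single markers did not all follow. It was 40.3 to 85.2 CPM in hippocampus CD51+ and 3.97 to 17.8 CPM in hippocampus CD51- libraries. In cortex it was 38.0 to 108 CPM in CD51+ and 0 to 3.77 CPM in CD51- libraries. Of these markers Pdgfra, Cspg4, Gpr17 and Sox10 were at 0 in hippocampus CD51+, Cacng4 in hippocampus CD51-, Cspg4, Gpr17, Neu4 and Sox10 in cortex CD51+, and Cacng4, Neu4 and Sox10 in cortex CD51- libraries. Pdgfra, Cspg4, Gpr17 and Sox10 in hippocampus, and Cspg4 and Gpr17 in cortex, thus had counts in the CD51- class alone. The 8 markers of other leukocytes summed to 1.87 to 18.5 CPM in hippocampus CD51+, 457 to 604 CPM in hippocampus CD51-, 0.167 to 30.8 CPM in cortex CD51+ and 516 to 609 CPM in cortex CD51- libraries, with Cd3e and Ly6c2 among those at 0 in all 4 groups. The 12 neuronal markers summed to 317 to 465 CPM in hippocampus CD51+ and 42.0 to 224 CPM in hippocampus CD51- libraries, without overlap, and to 317 to 692 CPM in cortex CD51+ and 186 to 438 CPM in cortex CD51- libraries, with overlap. Among them Rbfox3 was at 0 in hippocampus CD51+, Nefl and Nefm in hippocampus CD51-, and Tubb3 and Nefm in cortex CD51- libraries. The 9 endothelial markers summed to 0.999 to 25.7 CPM in hippocampus CD51+, 7.01 to 62.9 CPM in hippocampus CD51-, 1.02 to 6.84 CPM in cortex CD51+ and 12.0 to 33.8 CPM in cortex CD51- libraries, and Cldn5 was at 0 in all 4 groups. The sums of mural markers overlapped between the classes in both regions, as did those of fibroblast and meningeal markers. Every CD51 difference below stands beside these differences and that of the mitochondrial share, whose part in it was not tested. In bulk libraries, fewer cells of a type and less RNA per cell cannot be told apart.

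**Figure D1:**
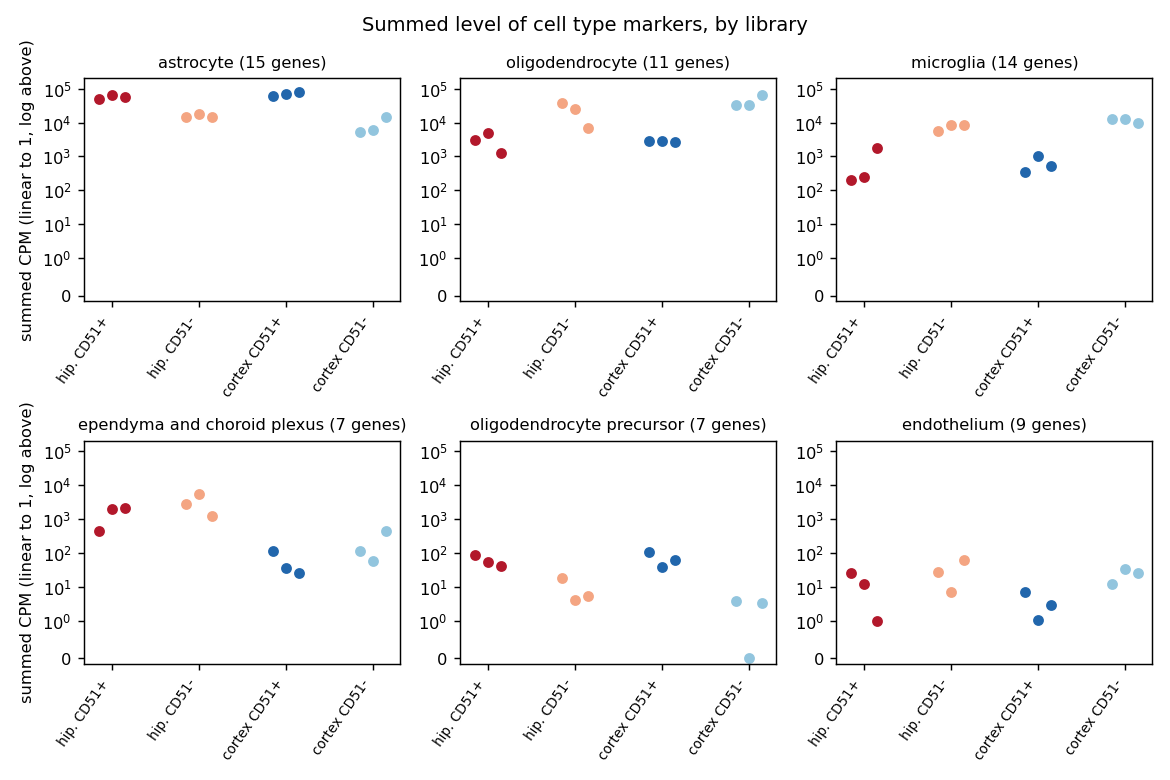
Summed CPM of 6 marker lists in each of the 12 libraries, on an axis that is linear to 1 and logarithmic above. Each point is a library, in the order hippocampus CD51+, hippocampus CD51-, cortex CD51+ and cortex CD51-. Astrocyte markers were highest in CD51+ libraries, and oligodendrocyte and microglial markers in CD51- libraries.

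The 250 bases before the RefSeq transcription start are shown for some genes (build GRCm38.p6, plus strand). These are the genes whose call in at least 1 comparison ended under no alternative processing. Capitals mark matches, on either strand, to any of 6 promoter motifs. Epha2 is at chr4:141300971-141301220, Plxna2 at chr1:194619579-194619828, Plxnb3 at chrX:73756853-73757102 and Slit2 at chr5:47982905-47983154.
Epha2: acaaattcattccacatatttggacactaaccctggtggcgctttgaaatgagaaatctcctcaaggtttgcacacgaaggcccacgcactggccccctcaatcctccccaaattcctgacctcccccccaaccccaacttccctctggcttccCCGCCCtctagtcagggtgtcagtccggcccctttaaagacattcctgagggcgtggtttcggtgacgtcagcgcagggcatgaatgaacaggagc
Plxnb3: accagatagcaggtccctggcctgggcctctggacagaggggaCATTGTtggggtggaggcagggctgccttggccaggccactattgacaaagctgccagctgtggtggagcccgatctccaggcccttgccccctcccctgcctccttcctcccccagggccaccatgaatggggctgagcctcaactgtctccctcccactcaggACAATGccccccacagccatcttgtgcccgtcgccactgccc
Plxna2: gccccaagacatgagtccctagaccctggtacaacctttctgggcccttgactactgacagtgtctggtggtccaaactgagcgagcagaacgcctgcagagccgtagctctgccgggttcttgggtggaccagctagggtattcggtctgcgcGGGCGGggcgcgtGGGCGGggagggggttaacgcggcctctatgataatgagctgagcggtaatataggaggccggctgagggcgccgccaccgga
Slit2: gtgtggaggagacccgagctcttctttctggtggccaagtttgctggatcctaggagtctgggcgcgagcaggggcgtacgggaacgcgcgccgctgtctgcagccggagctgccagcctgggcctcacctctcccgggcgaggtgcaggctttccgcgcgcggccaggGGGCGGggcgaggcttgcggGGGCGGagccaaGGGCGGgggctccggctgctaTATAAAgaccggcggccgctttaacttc

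The motifs searched were the CCAAT box (CCAAT), the TATA box (TATAAA), the AP-1 motif (TGANTCA), the E-box (CACGTG), the SOX motif (ACAATG) and the GC box (GGGCGG), each in windows that ran 250 bases before to 50 bases after the start. Slit2 held TATAAA 28 bases before the start and GGGCGG 81, 61 and 49 bases before it. Plxna2 held GGGCGG at 96 and 83 bases, Epha2 held its reverse complement at 96 bases, and Plxnb3 held the SOX motif at 207 bases as the reverse complement and at 42 bases. RefSeq windows were found for 61 of the 74 genes, 77 windows in all. GGGCGG was in 71.4% of these, against 35.7% of all 32851 windows, and TATAAA was in 2.6%, against 13.6%. CCAAT was in 28.6% against 37.4%, the AP-1 motif in 3.9% against 7.81%, the E-box in 6.49% against 7.15% and the SOX motif in 10.4% against 12.6%. The median window held 19 CpG dinucleotides for the guidance genes and 7 for all windows. A match describes the letters of a window and is not a site of binding.

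Of the 74 genes, 69 had at least 1 count and 16 had a count in all 12 libraries. The 5 with no count were Sema3f, Sema3g, Sema4f, Ntn5 and Plxna4os3. After the filter on low counts 45 genes could be tested, and 29 could not, among them all 4 netrins. Together the 74 genes summed to 1410 ± 235 CPM in hippocampus CD51+, 987 ± 105 CPM in hippocampus CD51-, 1540 ± 209 CPM in cortex CD51+ and 945 ± 58.1 CPM in cortex CD51- libraries (SD, n = 3 each). In each region every CD51+ library was above every CD51- library for this sum, which uses TMM-scaled library sizes. As a share of all counts, without that scaling, the 74 genes took 0.148%, 0.127% and 0.093% in hippocampus CD51+ libraries, against 0.158%, 0.118% and 0.144% in hippocampus CD51- libraries. In cortex they took 0.145%, 0.124% and 0.067% in CD51+ libraries, against 0.127%, 0.108% and 0.098% in CD51- libraries. On this scale the classes overlapped in both regions. Of the TMM-scaled sum, Sema6d, Plxnb2 and Plxnb1 held 35.0% over all libraries.

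Per exon length, the highest levels were those of semaphorins and B-type plexins. Plxnb2, a receptor of class 4 semaphorins, had a mean of 18.8 RPKM (CPM per kilobase of exon) over the 12 libraries, with a range of 6.79 to 32.5 RPKM. Sema6d, a transmembrane semaphorin that binds A-type plexins, had a mean of 15.8 RPKM and a range of 1.77 to 39.1 RPKM. Plxnb1, the receptor of Sema4d, had a mean of 11.9 RPKM, and Sema4d itself 8.52 RPKM. Ephb1, a receptor of B-type ephrins, had a mean of 7.92 RPKM, Epha2, a receptor mainly of A-type ephrins, 5.44 RPKM, and Nrp1, the neuropilin that binds Sema3a, 4.26 RPKM. The name match Unc50 lay between Sema6d and Plxnb1, with a mean of 12.4 RPKM. The ranges of the highest genes overlapped, so their order is not fixed by these libraries.

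**Figure D2:**
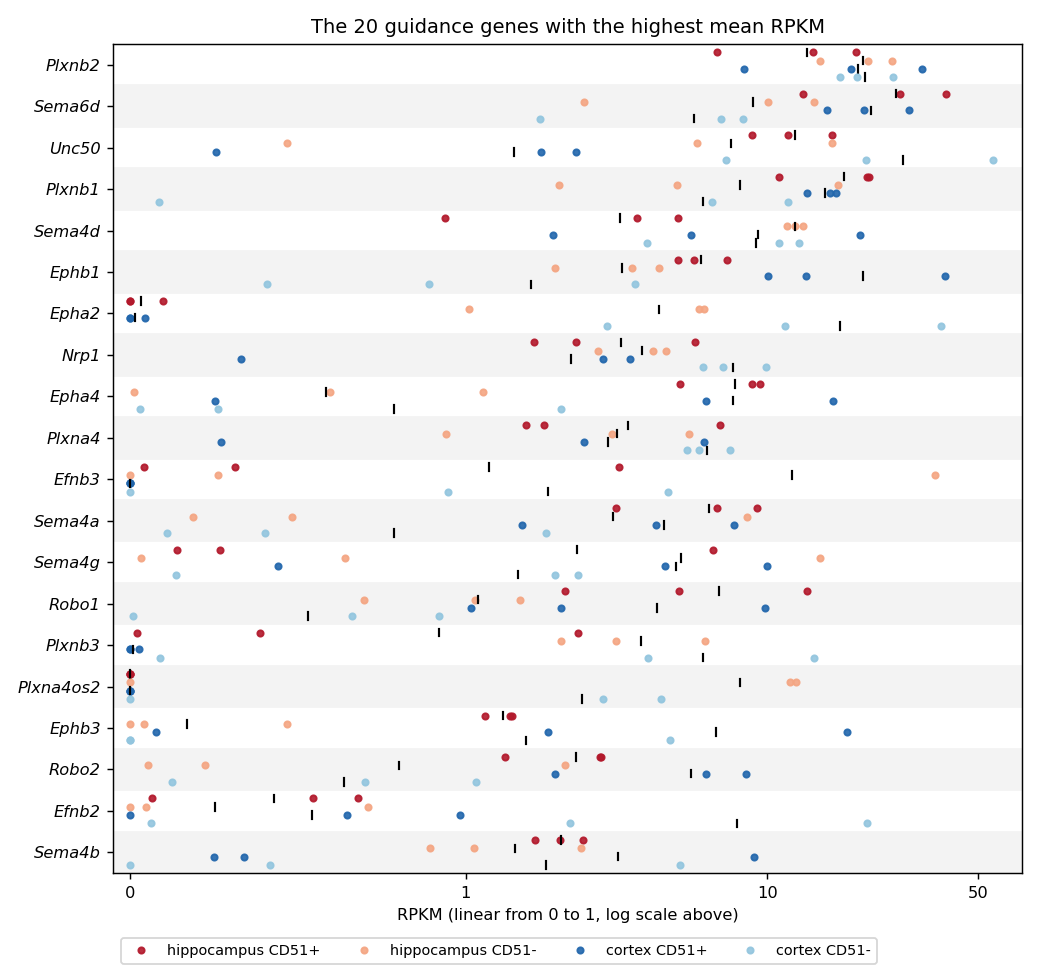
RPKM in each library for the 20 guidance genes with the highest mean, on an axis that is linear from 0 to 1 and logarithmic above. Coloured points are libraries, 3 in each of the 4 groups, and black ticks are group means. Plxnb2 was at or above 6.79 RPKM in all 12 libraries, while Epha2 was near 0 in all 6 CD51+ libraries.

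Replicates of a group often differed widely. Of the 28 guidance genes with at least 10 CPM in a cortex CD51- library, 17 (60.7%) were under 1 CPM in another library of that group, against 34.4% over all tested genes. The share was 12 of 33 (36.4%) in cortex CD51+ libraries, against 26.5% of all tested genes. It was 8 of 30 (26.7%) in hippocampus CD51+ libraries, against 24.2%, and 12 of 30 (40.0%) in hippocampus CD51- libraries, against 24.8%. The guidance counts take in genes that did not pass the filter, such as Sema7a and Slit1 in cortex CD51+ libraries. The shares over all genes hold tested genes only, so the pairs are not like for like and show no excess for guidance genes. A single library held over 50% of the summed CPM of 38 of the 69 genes with counts, and of 14 of the 45 tested genes. This share was not computed over all genes, so it is not shown to be particular to guidance genes. A count of 0 in a group of libraries allows up to 3 counts, and this floor sets the bounds on folds below, which cover counting error only.

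**Figure D3:**
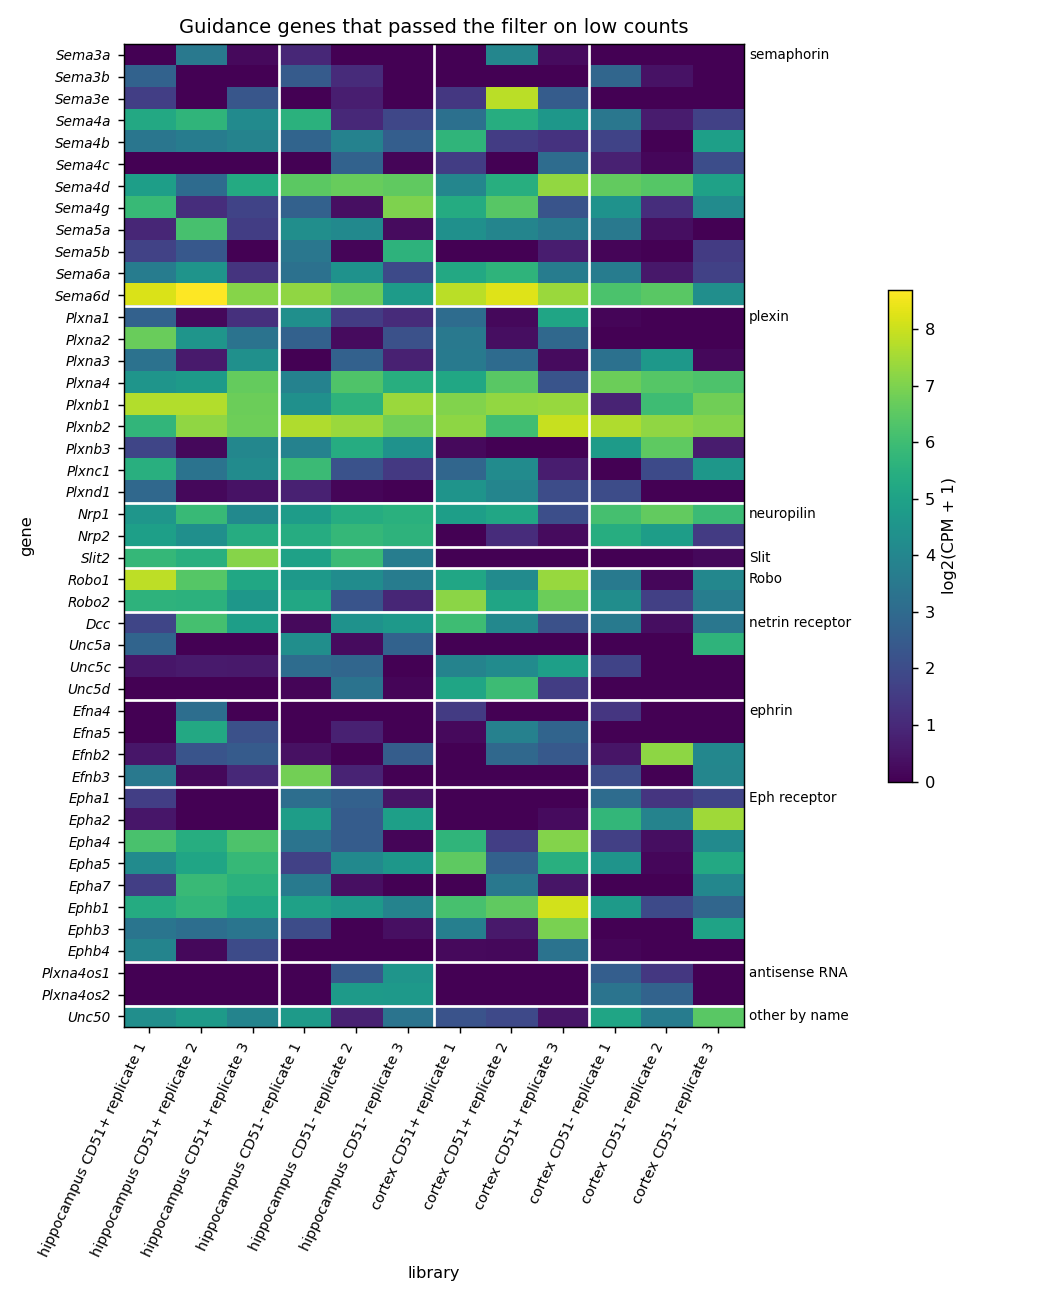
Level of the 45 tested guidance genes in each of the 12 libraries, as log2(CPM + 1), with genes in rows grouped by family and libraries in columns. White lines separate families and groups. Sema6d, Plxnb1 and Plxnb2 were high across most columns, and many other rows were bright in 1 library of a group and dark in another.

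Differences are called where the adjusted p of the edgeR quasi-likelihood test, adjusted over all 12613 tested genes, was under 0.05. In cortex, CD51+ against CD51-, 7 guidance genes were called, 4 higher and 3 lower, which is 15.6% of the 45 tested, and 11.3% of all tested genes were called. By direction the share over all genes was 5.05% higher and 6.27% lower. The higher genes were the ligand Sema3e and the receptors Plxna2, Unc5d and Ephb1, and the lower genes were the receptors Epha2, Plxnb3 and Nrp2. The median log2 fold change was 1.21 over the guidance genes and -0.03 over all genes, or 1.21 and 0.00 with groups at 0 counts set to their bound. The libraries of the classes did not overlap for 14 guidance genes that were higher and 6 that were lower, where 15.1% and 16.6% of all genes were so placed.

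In hippocampus, CD51+ against CD51-, 1 guidance gene was called, 2.22% of the 45 tested, and it was lower. That gene was Epha2, and 3.31% of all tested genes were called, 0.618% higher and 2.7% lower. The median log2 fold change was 0.70 over the guidance genes and -0.22 over all genes. The libraries did not overlap for 6 higher and 4 lower guidance genes, where 10.5% and 16.7% of all genes were so placed.

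Averaged over the regions, CD51+ against CD51-, 15 guidance genes were called, 8 higher and 7 lower, which is 33.3% of those tested, and 22.7% of all tested genes were called. By direction the share over all genes was 8.87% higher and 13.9% lower. The median log2 fold change was 0.73 over the guidance genes and -0.14 over all genes. All 6 CD51+ libraries lay above all 6 CD51- libraries for 2 guidance genes, Ephb1 and Ephb4, and below them for 1, Epha2, where 3.35% and 6.98% of all genes were so placed. For Ephb4 the placing rests on library size, as cortex CD51+ replicates 1 and 2 and hippocampus CD51+ replicate 2 had 1 count each. Cortex CD51- replicate 1 also had 1 count. The average shares its libraries with both regional comparisons, so a call in it is not a second observation. Over the 5 comparisons there were 24 calls in 17 genes, and 5 of these calls, in 4 genes, ended under none of the alternatives tried.

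**Figure D4:**
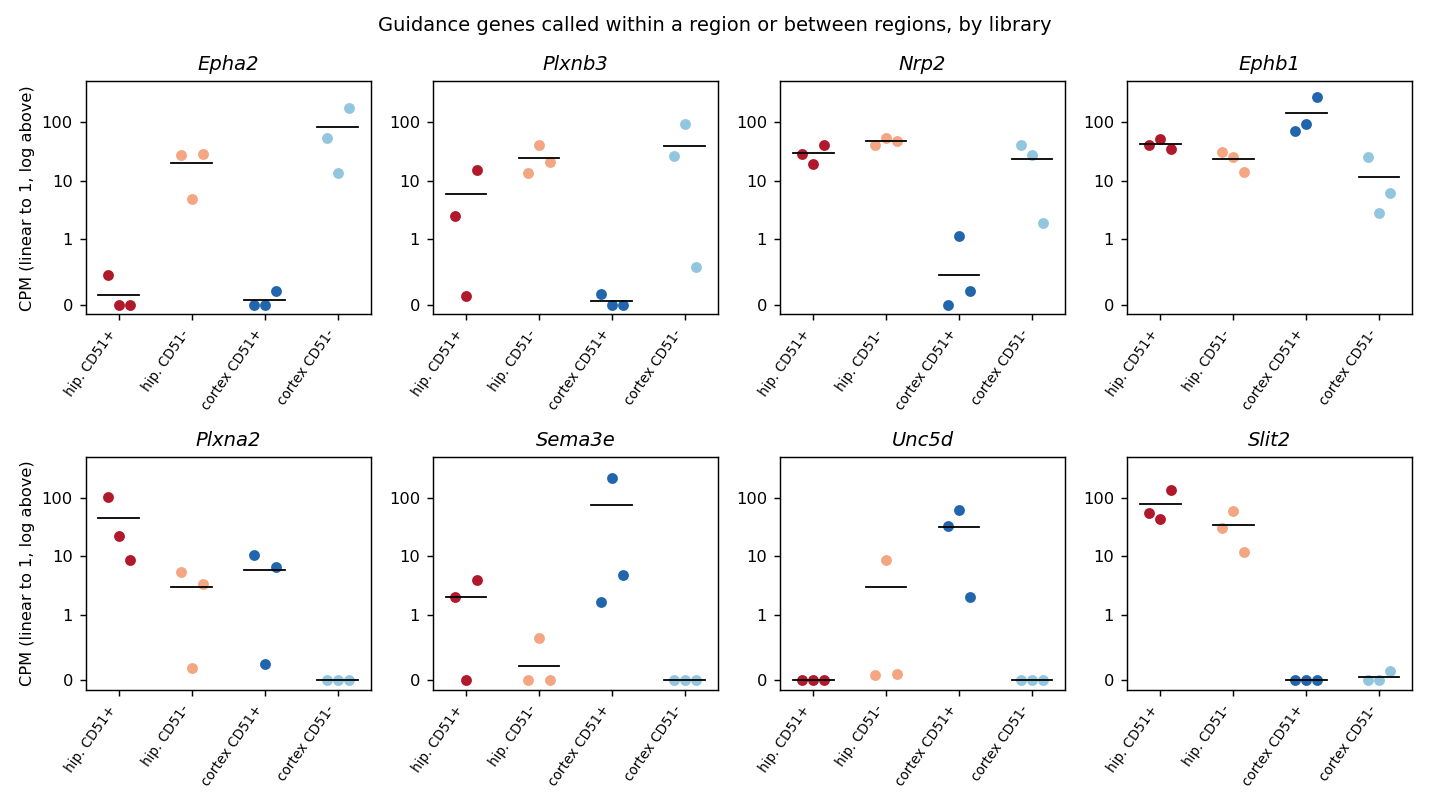
CPM in each library of the 8 guidance genes called within a region or between regions, on an axis that is linear to 1 and logarithmic above. Points are libraries, 3 in each group, and horizontal lines are group means. Epha2 was at or under 0.456 CPM in every CD51+ library, and Slit2 at or under 0.145 CPM in every cortex library.

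Among semaphorin ligands, Sema3e and Sema6d were called. Sema3e (chromosome 5, 14025276 to 14256689, mm10), a secreted class 3 semaphorin that can bind Plxnd1 without a neuropilin, had 1.67, 220 and 4.84 CPM in cortex CD51+ libraries, against 0 counts in all cortex CD51- libraries. The fold was at least 851 (edgeR adjusted p = 0.0123). A single library, cortex CD51+ replicate 2, held 94.3% of its summed CPM, and without it the adjusted p was 0.148. DESeq2 gave no adjusted p for Sema3e. In hippocampus it had 2.05, 0 and 3.99 CPM in CD51+ libraries, against 0, 0.646 and 0 CPM in CD51- libraries, and the groups overlapped. The call in the average (edgeR adjusted p = 0.00484) likewise ended without cortex CD51+ replicate 2, at an adjusted p of 0.0711.

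Sema6d (chromosome 2, 124089969 to 124667770) had 291, 413 and 139 CPM in hippocampus CD51+ libraries, against 151, 106 and 26.0 CPM in hippocampus CD51- libraries. For cortex the values were 221, 310 and 167 CPM in CD51+ libraries, against 74.1, 87.6 and 18.7 CPM in CD51- libraries. All cortex CD51+ libraries were above all cortex CD51- libraries, while the hippocampal groups overlapped. Averaged over regions it was higher in CD51+ by a log2 fold change of 1.76 ± 0.53 (SE, adjusted p = 0.0208 by edgeR). Without hippocampus CD51+ replicate 2 the adjusted p was 0.0636, and without hippocampus CD51- replicate 3 it was 0.0582.

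Of the 9 plexins, the semaphorin receptors, Plxna2 and Plxnb3 were called, in opposite directions. Plxna2 (chromosome 1, 194618218 to 194816869), a receptor of class 3 and class 6 semaphorins, had 103, 22.1 and 8.82 CPM in hippocampus CD51+ libraries, against 5.47, 0.185 and 3.42 CPM in hippocampus CD51- libraries. In cortex it had 10.5, 0.255 and 6.65 CPM in CD51+ libraries, against 0 counts in all CD51- libraries. In both regions every CD51+ library was above every CD51- library. In the average it was higher in CD51+ (edgeR adjusted p = 0.00801), and no alternative ended this call. The cortical fold was at least 47.3 (edgeR adjusted p = 0.0318), and the hippocampal log2 fold change was 3.87 ± 1.93 (SE, adjusted p = 0.283 by edgeR). The cortical call ended with limma-voom (adjusted p = 0.0559) and without any of 5 libraries, which were cortex CD51+ replicate 1 (0.0584), cortex CD51- replicates 1 (0.0785), 2 (0.0736) and 3 (0.0557), and hippocampus CD51+ replicate 1 (0.0654). With only the cortical libraries Plxna2 did not pass the filter, so that alternative gave no value.

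Plxnb3 (chromosome X, 73757090 to 73772514), a receptor of Sema5a, had 0.167, 0 and 0 CPM in cortex CD51+ libraries, against 26.2, 92.6 and 0.580 CPM in cortex CD51- libraries. That was 1 count against 1095, a level 756 times lower in CD51+ (95% counting interval 135 to 29900, edgeR adjusted p = 0.0178). In hippocampus it had 2.51, 0.133 and 15.3 CPM in CD51+ libraries, against 13.5, 40.4 and 20.5 CPM in CD51- libraries, and the groups overlapped. The call in the average (edgeR adjusted p = 0.00924) ended under no alternative. The cortical call ended without cortex CD51+ replicate 2 (adjusted p = 0.0585), cortex CD51+ replicate 3 (0.06) or cortex CD51- replicate 2 (0.0656), and with only the cortical libraries the gene did not pass the filter. Its ligand gene Sema5a was not called, with 24.4 ± 39.8, 11.7 ± 10.1, 15.2 ± 4.42 and 3.54 ± 5.93 CPM in hippocampus CD51+, hippocampus CD51-, cortex CD51+ and cortex CD51- libraries (SD, n = 3 each).

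The plexins with the highest levels were not called. Plxnb2 (chromosome 15, 89155549 to 89180788) had 52.4, 152 and 109 CPM in hippocampus CD51+ libraries, against 200, 166 and 115 CPM in hippocampus CD51- libraries. The cortical levels were 146, 64.5 and 251 CPM in CD51+ libraries, against 201, 153 and 134 CPM in CD51- libraries. The groups overlapped in both regions, and the average log2 fold change was -0.35 ± 0.48 (SE, adjusted p = 0.653 by edgeR). Plxnb1 (chromosome 9, 109095389 to 109119917) had 205, 208 and 105 CPM in hippocampus CD51+ libraries, against 19.5, 48.3 and 165 CPM in hippocampus CD51- libraries. For cortex the values were 130, 155 and 162 CPM in CD51+ libraries, against 0.838, 63.0 and 112 CPM in CD51- libraries. The cortical groups did not overlap, yet the average log2 fold change of 1.25 ± 0.70 did not pass (SE, adjusted p = 0.214 by edgeR).

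Of the neuropilins, the co-receptors of class 3 semaphorins, Nrp2 was called. Nrp2 (chromosome 1, 62703285 to 62818695), the co-receptor of Sema3f, had 0, 1.15 and 0.202 CPM in cortex CD51+ libraries, against 41.4, 27.7 and 1.88 CPM in cortex CD51- libraries. The cortical groups did not overlap, and Nrp2 was lower in CD51+ by a log2 fold change of -5.62 ± 1.63 (SE, adjusted p = 0.0292 by edgeR). In hippocampus it had 28.7, 19.1 and 40.3 CPM in CD51+ libraries, against 40.5, 54.3 and 48.1 CPM in CD51- libraries. The hippocampal groups lay just apart, by 40.3 against 40.5 CPM. The cortical call ended with only the cortical libraries (adjusted p = 0.119) and without cortex CD51+ replicate 1 (0.0891), cortex CD51+ replicate 3 (0.0958) or cortex CD51- replicate 1 (0.0704). In the average the log2 fold change was -3.16 ± 1.03 (SE, adjusted p = 0.029 by edgeR). That call ended without any of 8 libraries, at adjusted p-values of 0.0502 to 0.0712, and held without cortex CD51+ replicate 2, cortex CD51- replicates 2 and 3 or hippocampus CD51- replicate 1. Nrp1 was not called and averaged 31.9 ± 21.5 and 37.6 ± 9.68 CPM in hippocampus CD51+ and CD51- libraries, and 21.8 ± 16.4 and 75.5 ± 19.0 CPM in cortex CD51+ and CD51- libraries (SD, n = 3 each).

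The other tested members of the semaphorin system were Sema3a, Sema3b, Sema4a, Sema4b, Sema4c, Sema4d, Sema4g, Sema5b, Sema6a, Plxna1, Plxna3, Plxna4, Plxnc1 and Plxnd1, and none was called by edgeR in any comparison. Plxnd1, the Sema3e receptor, averaged 2.36 ± 3.68 and 0.275 ± 0.400 CPM in hippocampus CD51+ and CD51- libraries, and 13 ± 9.33 and 1.01 ± 1.74 CPM in cortex CD51+ and CD51- libraries (SD, n = 3 each). Its average log2 fold change was 3.33 ± 1.74 (SE, adjusted p = 0.175 by edgeR). Sema4d averaged 24.9 ± 16.2 and 94.9 ± 5.84 CPM in hippocampus CD51+ and CD51- libraries, and 71.2 ± 74.6 and 70.6 ± 35.3 CPM in cortex CD51+ and CD51- libraries, and its average log2 fold change was -0.96 ± 0.66 (SE, adjusted p = 0.317 by edgeR).

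At the Plxna4 locus, the antisense RNAs Plxna4os1 and Plxna4os2 were called lower in CD51+ in the average. Plxna4os2 (chromosome 6, 32451170 to 32454750) had 0 counts in all 6 CD51+ libraries, against 0, 25.5 and 24.3 CPM in hippocampus CD51- libraries and 9.05, 5.83 and 0 CPM in cortex CD51- libraries. It was at least 140-fold lower (edgeR adjusted p = 0.0116), and the call ended with limma-voom at an adjusted p of 0.053. Plxna4os1 (chromosome 6, 32511073 to 32515576) also had 0 counts in all CD51+ libraries, against 0, 4.34 and 22.0 CPM in hippocampus CD51- and 5.11, 1.67 and 0 CPM in cortex CD51- libraries. It was at least 73.1-fold lower (edgeR adjusted p = 0.0189), and the call ended with limma-voom (adjusted p = 0.0822) and without hippocampus CD51+ replicate 2 (0.0528) or 3 (0.0509). Each RNA lies within Plxna4 (chromosome 6, 32144268 to 32588192) on the opposite strand. The counting took no account of strand, so their reads and those of Plxna4 cannot be told apart. Plxna4, a receptor of class 3 and class 6 semaphorins, had 22.3, 25.7 and 98.4 CPM in hippocampus CD51+ libraries, against 13.3, 77.8 and 43.2 CPM in hippocampus CD51- libraries. In cortex it had 34.9, 86.9 and 3.83 CPM in CD51+ libraries, against 106, 83.7 and 76.5 CPM in CD51- libraries, and it was not called.

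Of the Slit ligands, Slit2 was the only guidance gene called between the regions, where 2.22% of the tested guidance genes were called, against 0.19% of all tested genes, and 0.159% of all were called higher in hippocampus. Slit2 (chromosome 5, 47983138 to 48307733), a secreted repellent that binds Robo1 and Robo2, had 54.2, 43.7 and 138 CPM in hippocampus CD51+ libraries and 30.2, 60.0 and 12.0 CPM in hippocampus CD51- libraries. It had 0 counts in all cortex CD51+ libraries and 0, 0 and 0.145 CPM in cortex CD51- libraries. Every hippocampal library was above every cortical library, which held for no other tested guidance gene and for 0.793% of all genes. Over the classes together this was 2546 counts against 1, a level 2250 times higher in hippocampus (95% counting interval 403 to 88900, edgeR adjusted p = 0.00229), and no alternative ended the call. Within hippocampus the classes overlapped, with a log2 fold change of 1.21 ± 1.26 for CD51+ against CD51- (SE, adjusted p = 0.708 by edgeR).

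Markers of ependyma and choroid plexus moved with region as well. The 7 markers summed to 446 to 2063 CPM in hippocampus CD51+, 1248 to 5593 CPM in hippocampus CD51-, 25.4 to 116 CPM in cortex CD51+ and 58.0 to 434 CPM in cortex CD51- libraries. None was at 0 in the hippocampal groups, while Folr1, Kl, Ccdc153 and Tmem212 were at 0 in cortex CD51+ and Tmem212 in cortex CD51- libraries. The part of these cells in the Slit2 level was not tested. Slit1 and Slit3 did not pass the filter on low counts and were not tested. Of the 174 counts of Slit1, 146 came from cortex CD51+ replicate 2. Of the 147 counts of Slit3, 134 came from hippocampus CD51- replicate 1.

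The Robo receptors, which bind Slits, were present in both regions. Robo1 (chromosome 16, 72308306 to 73046095) had 224, 84.2 and 35.3 CPM in hippocampus CD51+ libraries, against 25.1, 17.7 and 11.5 CPM in hippocampus CD51- libraries. The cortical levels were 34.2, 17.2 and 162 CPM in CD51+ libraries, against 10.9, 0.119 and 15.2 CPM in CD51- libraries. Within each region every CD51+ library was above every CD51- library. The average log2 fold change was 2.84 ± 0.87 (SE, adjusted p = 0.0222 by edgeR), and the call ended without cortex CD51+ replicate 3 (0.0992) or hippocampus CD51+ replicate 1 (0.0852).

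Robo2 (chromosome 16, 73891839 to 74411825) had 47.9, 47.4 and 23.0 CPM in hippocampus CD51+ libraries, against 36.2, 3.78 and 0.900 CPM in hippocampus CD51- libraries. For cortex the values were 144, 33.6 and 106 CPM in CD51+ libraries, against 18.4, 2.14 and 11.9 CPM in CD51- libraries. The cortical groups did not overlap and the hippocampal groups did, and the average log2 fold change of 2.33 ± 0.89 did not pass (SE, adjusted p = 0.0605 by edgeR). Robo3 and the endothelial receptor Robo4 had means of at most 0.136 CPM in any group and were not tested.

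Netrin ligands were barely detected. The 4 netrins summed to 6.93 ± 11 and 0.154 ± 0.266 CPM in hippocampus CD51+ and CD51- libraries, and to 6.35 ± 4.21 and 0.0483 ± 0.0837 CPM in cortex CD51+ and CD51- libraries (SD, n = 3 each). Of their receptors, Unc5d was called in cortex. Unc5d (chromosome 8, 28646717 to 29219636), which binds netrins and FLRT proteins, had 33.5, 60.8 and 2.02 CPM in cortex CD51+ libraries, against 0 counts in all cortex CD51- libraries, a fold of at least 332 (edgeR adjusted p = 0.0322). In hippocampus it had 0 counts in all CD51+ libraries, against 0.0816, 8.86 and 0.0900 CPM in CD51- libraries. The cortical call ended without any of 5 libraries, which were cortex CD51+ replicates 1 (0.051) and 2 (0.0807) and cortex CD51- replicates 1 (0.0732), 2 (0.0723) and 3 (0.0526). With only the cortical libraries the gene did not pass the filter.

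Dcc (chromosome 18, 71253634 to 72351069), the receptor for netrin-1 attraction, had 2.51, 69.2 and 28.6 CPM in hippocampus CD51+ libraries, against 0.163, 20.5 and 24.8 CPM in hippocampus CD51- libraries. In cortex it had 62.4, 15.7 and 3.43 CPM in CD51+ libraries, against 11.1, 0.238 and 10.0 CPM in CD51- libraries. Both pairs of groups overlapped, and the average log2 fold change was 1.54 ± 1.17 (SE, adjusted p = 0.376 by edgeR). Unc5a (chromosome 13, 54949411 to 55006018), a receptor for netrin repulsion, had 5.92, 0 and 0 CPM in hippocampus CD51+ libraries, against 18.8, 0.185 and 5.58 CPM in hippocampus CD51- libraries. The cortical levels were 0 counts in all CD51+ libraries, against 0, 0 and 48.8 CPM in CD51- libraries, so a single library held its cortical level (edgeR adjusted p of the average = 0.0616). Unc5c was tested and not called, with means of 0.496 ± 0.0388 and 4.60 ± 4.02 CPM in hippocampus CD51+ and CD51- libraries, and 19.9 ± 7.88 and 0.782 ± 1.35 CPM in cortex CD51+ and CD51- libraries (SD, n = 3 each). Unc5b was not tested.

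Among the Eph receptors, Epha2 was called lower in CD51+ in both regions. Epha2 (chromosome 4, 141301240 to 141329384), whose main ligand is ephrin-A1, had 0.456, 0 and 0 CPM in hippocampus CD51+ libraries, against 27.7, 4.80 and 28.8 CPM in hippocampus CD51- libraries. For cortex the values were 0, 0 and 0.202 CPM in CD51+ libraries, against 53.6, 13.8 and 176 CPM in CD51- libraries. Every CD51- library was above every CD51+ library. In cortex this was 1 count against 1968, a level 1360 times lower in CD51+ (95% counting interval 244 to 53700, edgeR adjusted p = 0.00358). In hippocampus it was 2 counts against 712, a level 186 times lower (51.4 to 1540, edgeR adjusted p = 0.0361), and in the average 3 against 2680, a level 534 times lower (182 to 2590, edgeR adjusted p = 0.000165). No alternative ended the call in cortex or in the average. The hippocampal call ended with upper-quartile factors (adjusted p = 0.0501), with only the hippocampal libraries (0.0669) and without cortex CD51- replicate 3 (0.0781), hippocampus CD51+ replicate 2 (0.155) or 3 (0.13), or hippocampus CD51- replicate 1 (0.0543) or 3 (0.0708). The ligand gene Efna1 was not tested, with a mean of 0.0308 CPM in hippocampus CD51- libraries and 0 counts in the other 3 groups.

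Ephb1 (chromosome 9, 101922128 to 102354693), a receptor of B-type ephrins, had 39.9, 51.3 and 35.3 CPM in hippocampus CD51+ libraries, against 30.6, 25 and 13.9 CPM in hippocampus CD51- libraries. In cortex it had 70.1, 94.0 and 271 CPM in CD51+ libraries, against 25.6, 2.86 and 6.23 CPM in CD51- libraries. All 6 CD51+ libraries were above all 6 CD51- libraries. In cortex the log2 fold change was 3.64 ± 1.05 (SE, adjusted p = 0.0278 by edgeR), and in the average it was 2.25 ± 0.70 (SE, adjusted p = 0.0234 by edgeR). The cortical call ended with only the cortical libraries (adjusted p = 0.0503) and without cortex CD51+ replicate 3 (0.145), cortex CD51- replicate 2 (0.0863) or cortex CD51- replicate 3 (0.0722). The call in the average ended with no filter (0.0558) and without cortex CD51+ replicate 3 (0.109), hippocampus CD51+ replicate 2 (0.0513) or hippocampus CD51- replicate 3 (0.0607).

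Epha4 (chromosome 1, 77367185 to 77515088), which binds ephrins of both classes and is known from astrocytes and neurons, had 71.8, 41.4 and 76.1 CPM in hippocampus CD51+ libraries, against 9.22, 4.80 and 0.0900 CPM in hippocampus CD51- libraries. The cortical levels were 50.5, 2.04 and 133 CPM in CD51+ libraries, against 2.10, 0.238 and 16.7 CPM in CD51- libraries. The hippocampal groups did not overlap and the cortical groups did. The average log2 fold change was 3.51 ± 1.12 (SE, adjusted p = 0.0268 by edgeR), and without cortex CD51+ replicate 3 the adjusted p was 0.0918.

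Ephb4 (chromosome 5, 137350109 to 137378669), the receptor of ephrin-B2, had 14.1, 0.133 and 3.0 CPM in hippocampus CD51+ and 0.167, 0.127 and 8.87 CPM in cortex CD51+ libraries, against 0 counts in hippocampus CD51- and 0.0838, 0 and 0 CPM in cortex CD51- libraries. That was 127 counts against 1 over the regions, a level 213 times higher in CD51+ (95% counting interval 37.5 to 8460, edgeR adjusted p = 0.0136), and without cortex CD51+ replicate 3 the adjusted p was 0.069. Epha1 (chromosome 6, 42358487 to 42373268), an Eph receptor known mainly from epithelia, had 2.05, 0 and 0 CPM in hippocampus CD51+ and 0 counts in cortex CD51+ libraries, against 7.91, 5.44 and 0.360 CPM in hippocampus CD51- and 7.46, 1.55 and 2.46 CPM in cortex CD51- libraries. It was called lower in CD51+ in the average (edgeR adjusted p = 0.0467). This call ended with upper-quartile factors (0.0541), with no filter (0.114) and without any of the libraries but hippocampus CD51+ replicate 1, at adjusted p-values of 0.0588 to 0.117. Epha5, Epha7 and Ephb3 were tested and not called, and the other 6 Eph receptors were not tested.

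Of the ephrin ligands, Efna5 and Efnb3 were called in the average, in opposite directions. Efna5 (chromosome 17, 62604184 to 62881317), a membrane-anchored ligand of EphA receptors, had 0, 37.2 and 3.5 CPM in hippocampus CD51+ and 0.167, 13.1 and 6.05 CPM in cortex CD51+ libraries, against 0, 0.738 and 0 CPM in hippocampus CD51- libraries and 0 counts in cortex CD51- libraries. It was higher in CD51+ (edgeR adjusted p = 0.0198), and without hippocampus CD51+ replicate 2 the adjusted p was 0.0679. Efnb3 (chromosome 11, 69554092 to 69560205), a transmembrane ligand of Eph receptors, had 10.3, 0.133 and 0.999 CPM in hippocampus CD51+ libraries and 0 counts in cortex CD51+ libraries, against 114, 0.830 and 0 CPM in hippocampus CD51- and 3.02, 0 and 14.9 CPM in cortex CD51- libraries. It was lower in CD51+ (edgeR adjusted p = 0.04), but its libraries overlapped in hippocampus and included a CD51- library at 0 in each region. Its call ended with limma-voom (adjusted p = 0.411) and without any of 7 libraries, which were hippocampus CD51- replicate 1 (0.326), all cortex CD51+ libraries (0.0621, 0.0691 and 0.066 for replicates 1 to 3), cortex CD51- replicate 3 (0.055) and hippocampus CD51+ replicates 2 (0.0672) and 3 (0.0669). Efnb2, the ephrin-B2 ligand of Ephb4, was not called, with 2.95 ± 2.21, 1.73 ± 2.72, 3.73 ± 3.43 and 54.3 ± 80.8 CPM in hippocampus CD51+, hippocampus CD51-, cortex CD51+ and cortex CD51- libraries (SD, n = 3 each).

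Efna4 was tested and not called, and the other 4 ephrins were not tested. Of the name matches kept apart from the families, Unc50 was not called, and Unc5cl was not tested. Unc50 averaged 19.4 ± 6.0 and 12.0 ± 12.8 CPM in hippocampus CD51+ and CD51- libraries, and 2.29 ± 1.69 and 44.5 ± 39.7 CPM in cortex CD51+ and CD51- libraries (SD, n = 3 each).

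**Figure D5:**
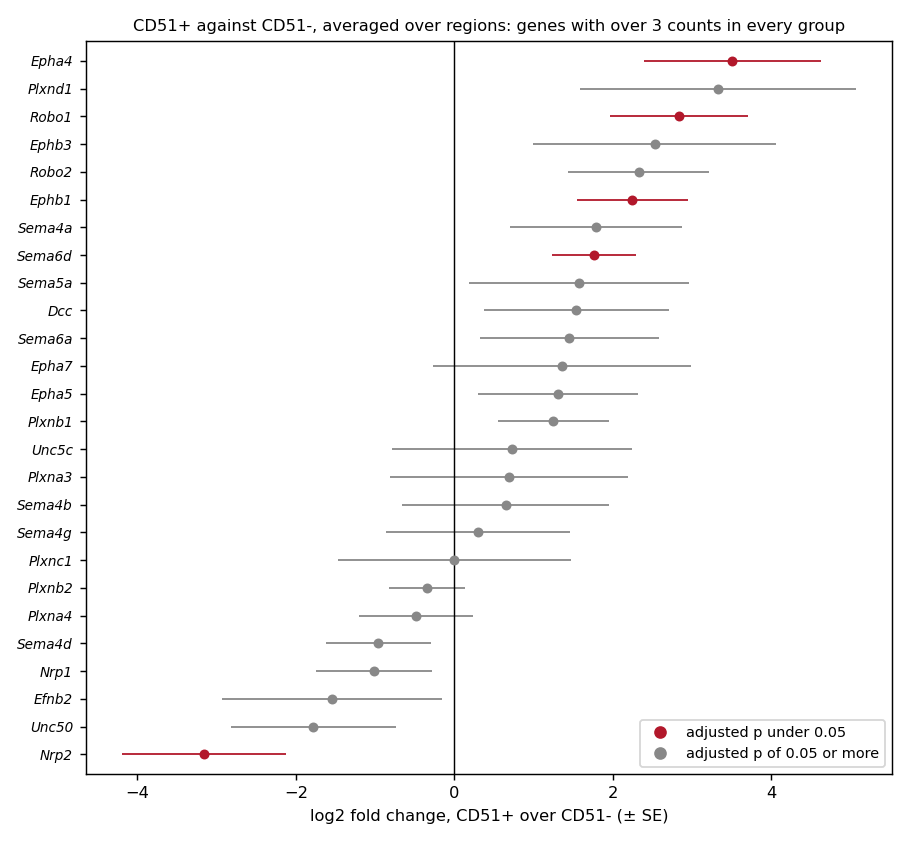
Log2 fold change of CD51+ over CD51-, averaged over the regions, for the 26 tested guidance genes with over 3 counts in every group. Points are estimates and bars are ± SE of the edgeR fit, with red for an adjusted p under 0.05. Of the 5 red points, Epha4, Robo1, Ephb1 and Sema6d lie above 0 and Nrp2 lies below it.

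The CD51 difference in hippocampus against that in cortex was called by edgeR for no guidance gene and for 0.0% of all tested genes. At an unadjusted p under 0.05 there were 9 of the 45 tested guidance genes, and 1584 of all 12613 tested genes. DESeq2 called 6 guidance genes and limma-voom called 0. A call in cortex without a call in hippocampus is therefore not shown to be a difference between the regions. The DESeq2 share over all genes is not given here, so its 6 calls are not shown to be particular to guidance genes.

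Beyond the ligands and receptors, 60 other genes of the guidance pathways were listed (co-receptors, adhesion partners and intracellular effectors), and 54 could be tested. In cortex 12 were called higher and 3 lower in CD51+, where 5.05% and 6.27% of all tested genes were, and their median log2 fold change was 2.00, against -0.03 over all genes. In hippocampus 0 were called higher and 1 lower, where 0.618% and 2.7% of all genes were, with a median of 0.90 against -0.22. In the average 19 were called higher and 6 lower, where 8.87% and 13.9% of all genes were, with a median of 1.46 against -0.14. By edgeR none was called between regions or in the difference of CD51 differences. The list was chosen with earlier results of these data known, so these shares and medians do not show that pathway genes differ as a set. Lrrc4b, a synaptic adhesion protein related to the netrin-G ligands, had 37.0, 367 and 41.5 CPM in cortex CD51+ libraries, so replicate 2 held most of its level. It had 0 counts in cortex CD51- libraries, a fold of at least 1599 (edgeR adjusted p = 0.000689). Farp1 had 212 ± 192 CPM in cortex CD51+ and 8.62 ± 5.05 CPM in cortex CD51- libraries (SD, n = 3 each), with a log2 fold change of 4.62 ± 0.90 (SE, adjusted p = 0.00183 by edgeR). Enah, an actin regulator, had 457 ± 121 CPM in cortex CD51+ and 63.1 ± 18.6 CPM in cortex CD51- libraries, with a log2 fold change of 2.86 ± 0.57 (SE, adjusted p = 0.00228 by edgeR). In hippocampus Lrrc4b, Farp1 and Enah were not called (edgeR adjusted p = 0.266, 0.201 and 0.175). Alternatives for these genes are not given here.

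Srgap2, a gene of the Slit-Robo pathway, was called lower in CD51+ in both regions. It had 45.1, 15.2 and 54.9 CPM in hippocampus CD51+ libraries, against 221, 212 and 853 CPM in hippocampus CD51- libraries. For cortex the values were 65.9, 17.6 and 59.1 CPM in CD51+ libraries, against 811, 1230 and 262 CPM in CD51- libraries. The groups did not overlap in either region. The log2 fold change was -3.48 ± 0.79 in hippocampus (SE, adjusted p = 0.0131 by edgeR) and -4.01 ± 0.81 in cortex (SE, adjusted p = 0.00246 by edgeR). The hippocampal call ended with limma-voom (adjusted p = 0.16) and without hippocampus CD51+ replicate 2 (0.0746) or hippocampus CD51- replicate 3 (0.0905). Of its relatives on the list, named here after their values were seen, Srgap1 and Srgap3 were called in the other direction. Srgap1 had 16.7 ± 4.13 and 1.23 ± 2.05 CPM in hippocampus CD51+ and CD51- libraries, and 92.1 ± 76.0 and 0.491 ± 0.710 CPM in cortex CD51+ and CD51- libraries (SD, n = 3 each). It was called higher in cortex (log2 fold change 7.55 ± 2.02 SE, adjusted p = 0.0184 by edgeR) and in the average (5.65 ± 1.31 SE, adjusted p = 0.00383 by edgeR), and the cortical call ended without cortex CD51+ replicate 1 (0.071) or cortex CD51- replicate 1 (0.0518). Srgap3 had 359 ± 56.9 and 71.5 ± 50.1 CPM in hippocampus CD51+ and CD51- libraries, and 190 ± 96.0 and 41.0 ± 47.4 CPM in cortex CD51+ and CD51- libraries (SD, n = 3 each). It was called higher in the average alone (log2 fold change 2.27 ± 0.68 SE, adjusted p = 0.0193 by edgeR).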

How the data were processed

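Per the labels' protocols, RNA of sorted cells was extracted with a column kit and made into libraries with a low-input kit for paired-end sequencing. The authors deposited raw counts of read pairs per gene, which featureCounts 2.0.4 made over GENCODE vM25 exons without regard to strand, per the file headers. The submitters' processing notes name STAR, mm10 and DESeq2 1.40.2, with no role given. Groups came from the titles. Symbols came from a name table that matched 55141 of 55401 gene IDs.

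From the deposited counts, edgeR 4.0.16 in R 4.3.3 gave TMM factors, filterByExpr by group (minimum count 10, total 15; 12613 genes), and 1 quasi-likelihood fit of 4 groups with 5 contrasts and Benjamini-Hochberg adjustment over all tested genes. CPM and RPKM were computed from counts with TMM-scaled library sizes, and RPKM with the deposited exon lengths. The SE is the absolute log2 fold change over the root of the F statistic. Genes with 0 counts in a group get a bound at 3 counts over the group, and those with 1 to 3 a ratio with a 95% exact counting interval. Where a group within the average has 3 or fewer counts, no fitted fold is printed. Counts per library limit the precision as given with the results.

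Alternatives were DESeq2 1.42.0, limma-voom (limma 3.58.1), RLE and upper-quartile factors, no filter, 1 CPM in 3 libraries, robust dispersion, mitochondrial genes left out, a replicate block, only the libraries of a region and each library left out. Values per library are given for every called guidance gene and for the 3 genes per system with the highest RPKM. Of the other pathway genes that were called, only some are given values, mostly as group means. The genes, lists and tests were chosen with earlier results of these data known. Promoter windows are from RefSeq (GRCm38.p6). Protein sequences were not used here.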

Additional observations from a re-analysis of the deposited data

Results flagged for a closer look

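The CD51+ libraries of Unc5d, a netrin and FLRT receptor, lay below the CD51- libraries in hippocampus and above them in cortex, but by edgeR neither the hippocampal difference nor the difference between the regions passed. In hippocampus all 3 CD51+ libraries had 0 counts and the CD51- libraries had 98 counts in all, a bound of at least 17.1-fold lower in CD51+ (edgeR adjusted p = 0.162). In cortex all 3 CD51+ libraries, with 688 counts, lay above the CD51- libraries, which had 0 counts (edgeR adjusted p = 0.0322). The log2 difference between the hippocampal and the cortical CD51 difference was -18.67 (edgeR adjusted p = 0.139), a value that depends on the prior count because a group is at 0 in each region. DESeq2 gave -17.00 (adjusted p = 4.77e-05), limma-voom gave -11.00 (adjusted p = 0.3), and edgeR with no filter gave -18.59 (adjusted p = 0.00756). Of the hippocampal counts, 96 came from CD51- replicate 2, at 8.86 CPM, against 0.0816 and 0.0900 CPM in the other CD51- libraries.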

How the results depend on the processing

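In cortex the 7 called guidance genes (4 higher, 3 lower) became 16 with DESeq2 (8 higher, 8 lower) and 3 with only the cortical libraries (1 higher), where Plxna2, Unc5d and Plxnb3 did not pass the filter and have no value, and no filter called 5 lower. In hippocampus the 1 call became 5 with DESeq2 (2 higher, 3 lower) and 0 with upper-quartile factors or only the hippocampal libraries. In the average limma-voom called 15 genes in all, the same total as edgeR, but 4 of them lower in place of 7. Between regions DESeq2 called 5, all higher in hippocampus, in place of 1. In the difference of CD51 differences DESeq2 called 6 (4 higher, 2 lower) and no filter called 1, which was lower, in place of 0. Leaving out each library in turn gave 3 to 7 calls in cortex (1 to 4 higher, 1 to 3 lower), 0 to 1 in hippocampus (0 to 1 lower), 9 to 17 in the average (5 to 11 higher, 3 to 8 lower), 1 to 1 between regions and 0 to 0 in the difference of differences. Cortex fell to 4 calls without cortex CD51+ replicate 1, 2 or 3 or cortex CD51- replicate 1, and to 3 without cortex CD51- replicate 2. Hippocampus fell to 0 without cortex CD51- replicate 3, hippocampus CD51+ replicate 2 or 3, or hippocampus CD51- replicate 1 or 3. The average fell to 9 without cortex CD51+ replicate 3 or hippocampus CD51+ replicate 2. The cause was not tested. The share of all genes called under each alternative is not given here. These counts are therefore not shown to be particular to guidance genes.

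Over 47 single-gene results, 901 of 1000 alternatives kept direction and side of the threshold, 80 lost the call, 15 gained one and 4 turned the direction. All 4 were of Itgav in hippocampus, which was not called: -0.04 became 0.06 with limma-voom, 0.20 with upper-quartile factors, and 0.04 and 0.36 without hippocampus CD51+ replicate 2 or hippocampus CD51- replicate 2, in a range of -0.39 to 0.36 over the left-out libraries. Upper-quartile factors moved the median of all genes by 0.12 in cortex, 0.22 in hippocampus and 0.17 in the average (log2). Same-numbered libraries did not deviate together (0 of 18 pairs correlated above 0.1), and the replicate block gave 8, 1, 16, 1 and 0 calls in cortex, hippocampus, the average, between regions and in the difference of differences. The filter on low counts left 29 guidance genes untested. It asks for counts in enough libraries, so Unc5cl, with 317 counts in all, did not pass while Efna4, with 89, did.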
